A study of Mus musculus with 25 samples.

Results

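The 10 genes described here encode parts of the complement system and of the machinery with which microglia, the resident macrophages of the brain, engulf material. They are C1qa, C1qb, C1qc, C3, C4b, Tyrobp, Trem2, Cd68, Ctss and Aif1, chosen by symbol, and all 10 were found among the 23990 genes of the deposited expression table. The table comes from RNA sequencing of total RNA of the prefrontal cortex of wild type C57BL/6 mice aged 10 weeks. The labels give 25 samples in 6 groups, with 13 male and 12 female samples. In each sex there were control mice (M-CTRL and F-CTRL, 4 samples each), socially defeated mice given vehicle (M-stress/vehicle, 5 samples, and F-stress/vehicle, 4 samples) and socially defeated mice given dihydrocaffeic acid/malvidin-glucoside (M-stress/treatment and F-stress/treatment, 4 samples each). Vehicle or compounds were given before and throughout the defeat sessions, which expose a mouse repeatedly to an aggressor.

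The columns of the table are named by a letter and a number, not by group. The letters are A, B, C, E, F and G. Letter E has 5 columns, as only M-stress/vehicle has a sample numbered 5, and it is the 1 letter tied to a group here. That tie rests on letters standing for groups and numbers for replicates. The 20 columns of the other 5 letters hold 4 libraries each and match 5 groups equally well, so no sex, stress or treatment is attached to them. They are given as values, ranges and medians by letter, and no comparison of stressed with control mice was possible. Library names and gene names can look alike, so C3 and C4 are written "library C3" and "library C4" where a library is meant.

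C1q opens the classical complement pathway. Its molecule is built from the A, B and C chains, binds tagged surfaces such as weak synapses or debris, and with the proteases C1r and C1s leads to cleavage of C4 and then C3, whose fragments are recognised by receptors on microglia. TREM2 is a lipid-sensing receptor of microglia that signals through the adaptor TYROBP (DAP12) to the kinase SYK. CD68 is a glycoprotein of late endosomes and lysosomes, cathepsin S (Ctss) is a lysosomal protease, and AIF1 (IBA1) is a calcium-binding protein of the microglial cytoskeleton that is widely used to stain these cells. In the brain the C1q chains are made chiefly by microglia, whereas C4 is made also by astrocytes and neurons.

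Library depth was 32614304 to 44265039 reads over the 25 libraries and 34565147 to 44265039 reads in M-stress/vehicle. Levels are reads scaled to a common library size (CPM), and 3 fragments of 2 reads each correspond to 0.135 to 0.181 CPM. Low read numbers were mostly even: the value 2 occurred 32137 times in the table and the value 1 occurred 9958 times. Of the values from 1 to 10 reads, 72.9% were even. Tests that treat each read as independent are therefore given on reads and again with 2 reads taken as 1 fragment. The excitatory neuron genes Camk2a and Slc17a7 stood at 3402 ± 424 and 1926 ± 94.3 CPM in M-stress/vehicle (SD, n = 5). These markers show excitatory neurons in the tissue and do not single out the prefrontal cortex. The microglial genes P2ry12 (37.1 ± 3.42 CPM), Tmem119 (24.3 ± 2.50 CPM) and Cx3cr1 (63.1 ± 3.01 CPM) were present as well (SD, n = 5). These are bulk tissue values, in which fewer cells of a type and less RNA per cell cannot be told apart.

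The bases just before the transcription start of the microglial members are shown because PU.1, the myeloid transcription factor encoded by Spi1, is known to drive many genes of microglia and macrophages. RefSeq promoter windows (GRCm38.p6) were present for 7 of the 10 members. Each sequence below is written 5′ to 3′ on the strand of the gene and ends before the annotated transcript starts. Capitals mark the PU.1 core GAGGAA or, where it lies on the other strand, TTCCTC.
C1qb, chr4:136886201-136886450, minus strand: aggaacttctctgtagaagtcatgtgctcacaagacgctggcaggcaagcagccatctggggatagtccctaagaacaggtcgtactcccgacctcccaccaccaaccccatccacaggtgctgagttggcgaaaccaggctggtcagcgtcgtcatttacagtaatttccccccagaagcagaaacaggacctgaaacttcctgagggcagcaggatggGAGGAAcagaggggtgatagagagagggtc
C1qc, chr4:136893066-136893164, minus strand: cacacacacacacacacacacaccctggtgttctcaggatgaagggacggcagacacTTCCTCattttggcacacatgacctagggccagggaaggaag
Trem2, chr17:48346151-48346400, plus strand: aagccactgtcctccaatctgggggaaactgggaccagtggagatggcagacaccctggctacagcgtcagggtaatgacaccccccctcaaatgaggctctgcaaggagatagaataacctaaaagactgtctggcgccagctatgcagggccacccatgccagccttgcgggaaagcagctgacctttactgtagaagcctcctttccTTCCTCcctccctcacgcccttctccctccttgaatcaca
Cd68, chr11:69666171-69666420, minus strand: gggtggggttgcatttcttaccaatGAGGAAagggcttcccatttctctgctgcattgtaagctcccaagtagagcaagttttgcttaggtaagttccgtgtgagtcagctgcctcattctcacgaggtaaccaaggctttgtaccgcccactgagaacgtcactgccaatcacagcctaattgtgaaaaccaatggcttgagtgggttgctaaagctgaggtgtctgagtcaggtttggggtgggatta
Ctss, chr3:95526536-95526785, plus strand: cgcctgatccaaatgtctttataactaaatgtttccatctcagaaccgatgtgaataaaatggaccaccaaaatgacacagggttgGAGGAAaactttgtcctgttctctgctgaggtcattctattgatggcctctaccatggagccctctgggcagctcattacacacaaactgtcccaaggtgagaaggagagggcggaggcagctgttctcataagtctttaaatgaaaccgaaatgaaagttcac
The 6 bases were found once in each of these 5 sequences and not in those of C3 and Aif1. Among all 32851 RefSeq windows, 23.3% hold the motif on either strand within the same 250 bases, so a match in a single promoter is common. The C1qc stretch is 99 bases long because the RefSeq and GENCODE starts differ there. A match describes letters only.

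The 3 chains of C1q were read at nearly equal levels in CPM, which takes no account of gene length. Scaled to exon length, C1qc stood below C1qa and C1qb, as given further on. The genes lie side by side on the minus strand of chromosome 4 (GRCm38): C1qb at chr4:136880129-136886187, C1qc at chr4:136889804-136893065 and C1qa at chr4:136895917-136898803. In the 5 M-stress/vehicle libraries C1qa stood at 49.8, 45.0, 39.2, 49.0 and 42.8 CPM, with a mean of 45.1 ± 4.40 (SD, n = 5). C1qb stood at 44.0, 39.1, 36.7, 45.4 and 43.7 CPM, with a mean of 41.8 ± 3.71 (SD, n = 5). C1qc stood at 41.7, 39.6, 34.7, 42.2 and 40.1 CPM, with a mean of 39.7 ± 2.98 (SD, n = 5). Library E3 was the lowest for each chain, and the 3 ranges overlapped. Over all 25 libraries the CPM ratio of C1qb to C1qa ran from 0.868 to 1.04, with a median of 0.951. The ratio of C1qc to C1qa ran from 0.774 to 1.01, with a median of 0.880.

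By column letter, C1qa took the following levels. In letter A it stood at 33.1, 44.4, 34.0 and 36.0 CPM. Letter B gave 32.4, 37.0, 33.2 and 33.3 CPM. Letter C gave 29.9, 44.4, 30.4 and 33.5 CPM. The second library of letters A and C was thus well above its neighbours, while letter B lay close together. In letter F the levels were 53.8, 53.1, 42.1 and 49.7 CPM. Letter G gave 53.3, 41.9, 38.1 and 40.7 CPM. The letter medians ran from 31.98 CPM in letter C to 51.4 CPM in letter F, a ratio of 1.61, and the widest ratio within a letter was 1.48. C1qb ran from 28.9 to 54.0 CPM over the 25 libraries and C1qc from 26.0 to 48.5 CPM, with their lowest medians in letter C and their highest in letter F too.

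Downstream of C1q, C4b varied most within letters among the 9 members of at least 1 CPM, with a within-letter SD of 0.69 on the log2 CPM scale. C4b encodes complement C4, whose activated fragment tags surfaces, and lies at chr17:34728380-34743882 on the minus strand. Its levels in M-stress/vehicle were 26.0, 10.5, 14.1, 12.7 and 10.2 CPM, with a mean of 14.7 ± 6.51 (SD, n = 5). Library E1 held 2.19 times the mean of the other 4, which themselves spanned 10.2 to 14.1 CPM. In letter A the gene stood at 4.69, 6.15, 7.52 and 3.15 CPM. Letter B gave 16.0, 3.91, 6.52 and 12.99 CPM. Letter C gave 5.77, 8.46, 3.43 and 6.06 CPM. Letter B alone thus spanned 4.10 times from lowest to highest, the widest range of C4b within any letter. Letter F gave 9.59, 12.6, 10.2 and 3.29 CPM. Letter G gave 8.42, 10.3, 3.82 and 6.02 CPM. The M-stress/vehicle range began at 10.2 CPM, above every library of letters A and C and within the ranges of letters B, F and G. C4a, a near-identical neighbour (chr17:34809092-34823464), was read at 3.01 ± 0.900 CPM in M-stress/vehicle (SD, n = 5). The ratio of C4a to C4b ran from 0.133 to 0.802 over the 25 libraries, and reads shared by both copies make each value uncertain.

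The C3 gene, which encodes the central component where the complement pathways meet, was scarcely read. It lies at chr17:57203970-57228136 on the minus strand. M-stress/vehicle libraries held 4, 6, 10, 28 and 14 reads, which is 0.0963, 0.157, 0.224, 0.812 and 0.352 CPM and a mean of 0.328 ± 0.287 (SD, n = 5). Over all 25 libraries its reads ran from 0 in library B3 to 28 in library E4. Every one of the 25 values was even. In library B3, 0 reads allow a level of up to 0.169 CPM, taken as 3 fragments of 2 reads, and this limit covers counting error only. The M-stress/vehicle mean rests on library E4 and was 0.207 CPM without it. The letters overlapped throughout for the C3 gene, and no test between letters was made.

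Of the receptor pair, Trem2 (chr17:48346401-48354147, plus strand) stood at 14.9, 12.3, 11.2, 13.6 and 14.3 CPM in M-stress/vehicle, with a mean of 13.2 ± 1.503 (SD, n = 5). Its adaptor Tyrobp (chr7:30413760-30417585, plus strand) stood at 10.0, 12.1, 10.0, 12.1 and 11.1 CPM, with a mean of 11.1 ± 1.06 (SD, n = 5). The libraries did not rank alike for receptor and adaptor: E1 was the highest for Trem2 and near the lowest for Tyrobp. Across letters Trem2 medians ran from 10.9 CPM in letter A to 14.7 in letter F, and Tyrobp medians from 7.97 in letter B to 12.2 in letter F. Library G1 was the highest of all 25 for both, at 17.8 CPM for Trem2 and 13.8 CPM for Tyrobp.

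Among the genes of the lysosome, Ctss (chr3:95526786-95556403, plus strand) was abundant and steady within letters. It stood at 62.1, 54.3, 55.5, 62.1 and 57.5 CPM in M-stress/vehicle, with a mean of 58.3 ± 3.65 (SD, n = 5). Letter A gave 49.3, 49.1, 49.1 and 50.8 CPM. Letter B gave 46.6, 42.8, 47.9 and 41.0 CPM. Within a letter the values lay close, with a widest ratio of 1.21. Letter C gave 44.2, 53.5, 49.4 and 44.1 CPM. Letter F gave 75.4, 66.4, 63.4 and 64.1 CPM. Letter G gave 62.9, 55.3, 59.9 and 55.1 CPM. All 5 M-stress/vehicle libraries lay above every library of letters A, B and C, below every library of letter F, and overlapped those of letter G. Cd68 (chr11:69664213-69666153, minus strand) stood at 7.44, 7.16, 5.00, 7.02 and 7.08 CPM in M-stress/vehicle, with a mean of 6.74 ± 0.986 (SD, n = 5). Library E3 was low and the other 4 nearly equal. Cd68 letter medians ran only from 5.58 to 7.29 CPM, and all letters overlapped.

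Aif1 (chr17:35170991-35176068, minus strand) stood at 8.37, 7.19, 7.42, 6.35 and 6.81 CPM in M-stress/vehicle, with a mean of 7.23 ± 0.759 (SD, n = 5). Its letter medians ran from 5.14 CPM in letter C to 7.23 in letter G. The 4 libraries of letter C, at 4.56 to 5.57 CPM, all lay below those of letters E, F and G, which began at 6.25 CPM.

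**Figure D1:**
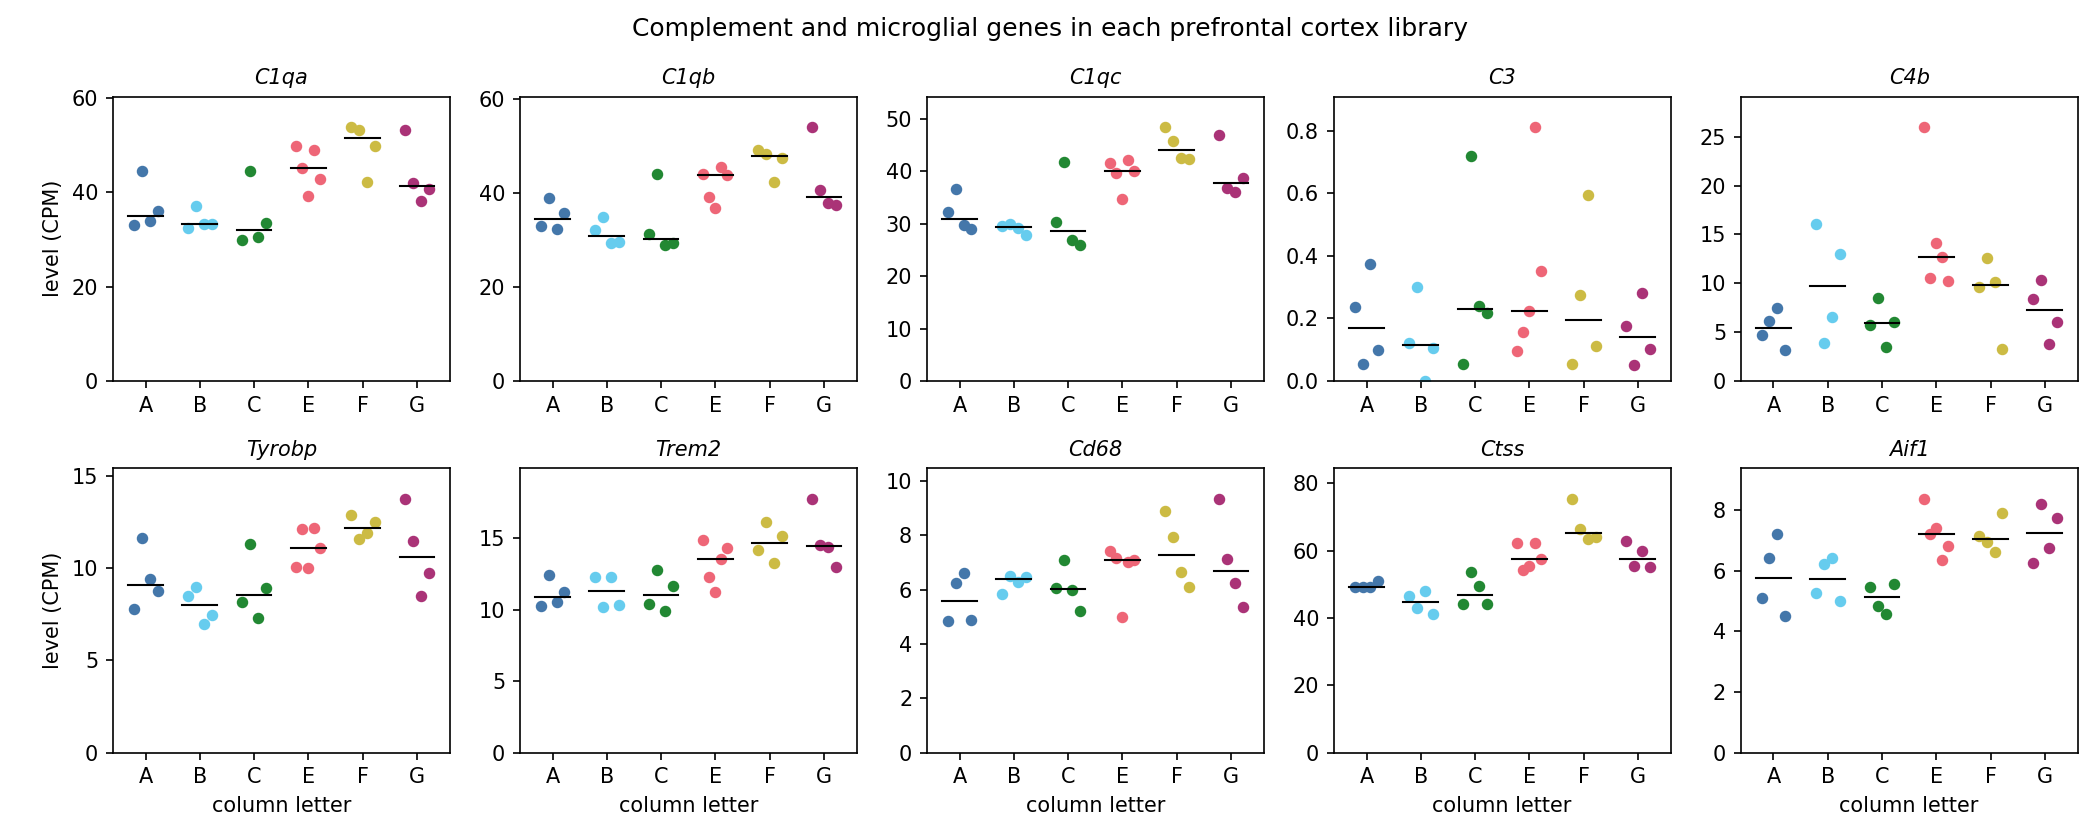
Level in CPM (y axis, from 0) of each of the 10 genes in the 25 libraries, by column letter (x axis); each point is 1 library and each bar the median of the letter. Letter E is M-stress/vehicle and the other letters carry no condition; Ctss stands at 41.0 to 53.5 CPM in letters A, B and C and at 54.3 to 75.4 CPM in letters E, F and G.

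Per kilobase of exon, the C1q chains, Ctss and Tyrobp stood above the other members. On the RPKM scale (reads per kilobase of exon, on the CPM scale) C1qa stood at 43.4 ± 4.23, Ctss at 42.9 ± 2.69 and C1qb at 38.4 ± 3.41 in M-stress/vehicle (SD, n = 5). Their ranges overlapped. C1qc (20.5 ± 1.54 RPKM) and Tyrobp (16.6 ± 1.59 RPKM) followed, with overlapping ranges below those 3 genes (SD, n = 5). Cd68 (5.36 ± 0.785 RPKM) and Aif1 (4.72 ± 0.495 RPKM) overlapped each other, as did Trem2 (2.68 ± 0.304 RPKM) and C4b (2.58 ± 1.14 RPKM), each with n = 5 and SD. The C4b range, 1.80 to 4.56 RPKM, also reached into those of Aif1 (4.14 to 5.47 RPKM) and Cd68 (3.98 to 5.92 RPKM), so the order of C4b against these genes is not set beyond its spread. The C3 gene was last at 0.0638 ± 0.0557 RPKM (SD, n = 5). The whole annotated exon length was used, so a gene whose long exons are little used reads low on this scale.

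Within M-stress/vehicle, the 5 libraries differed by more than counting error for most members. They did so for most genes on reads, but for 45.5% of genes with 2 reads taken as 1 fragment. A chi-square test with Benjamini-Hochberg adjustment over 19239 genes called all 10 members, against 74.4% of all genes tested. With 2 reads taken as 1 fragment, 8 members passed, against 45.5% of all genes. Tyrobp (adjusted p = 0.151) and Aif1 (adjusted p = 0.275) did not pass on that chi-square scale. C4b had the smallest adjusted p of the members, 1.9e-47 by the same chi-square test. That rank rests on library E1: on reads and without E1, the chi-square test gave C4b an adjusted p of 4.9e-07, C1qa 4.8e-09 and C1qb 1.7e-09. Several of the calls rest on 1 library: on reads, C1qc (adjusted p = 0.296) and Cd68 (adjusted p = 0.915) were not called by the chi-square test without library E3. The C3 gene was not called without E4 (adjusted p = 0.0984), nor Aif1 without E1 (adjusted p = 0.351) or without E4 (adjusted p = 0.0875), by the same chi-square test. The variation left after counting error, as a coefficient of variation, had a median of 8.66% over the 9 members of at least 1 CPM and of 8.22% over all such genes. With 2 reads as 1 fragment these medians were 8.18% and 7.13%. C4b was at 44.0%, and at 43.9% with 2 reads as 1 fragment, but at 14.7% and 13.98% without library E1. Cd68, at 13.3%, fell to 0% without E3, C1qc, at 7.08%, to 1.56% without E3, and Aif1, at 8.66%, to 2.94% without E1. The C3 gene, at 82.8%, was at 40.2% without E4. Nothing says that the 5 samples came from separate mice, so these p-values measure only the spread between libraries.

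For most members, a larger share of the spread lay between letters than for the typical gene. A share can be high because libraries within a letter lie close, so it does not give the size of letter differences. The highest letter median was 1.46 times the lowest for Ctss and 2.34 times for C4b. The share of a gene's log2 CPM spread over the 25 libraries that lies between the 6 letters was 84.2% for Ctss, 70.1% for C1qc, 63.7% for C1qb, 63.5% for Trem2 and 62.8% for C1qa. It was 60.6% for Aif1, 56.6% for Tyrobp, 40.0% for C4b and 27.1% for Cd68. The median gene of at least 1 CPM had 32.5%, and the upper quartile was 47.3%. Of the 9 members of at least 1 CPM, 8 lay above the median gene and 7 above the upper quartile. Cd68 was the exception, and the C3 gene, which is under 1 CPM, had 15.8%. The median gene of the endothelium list had 78.3% and that of the homeostatic microglia list 61.0%, so other cell type lists held shares as large.

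**Figure D2:**
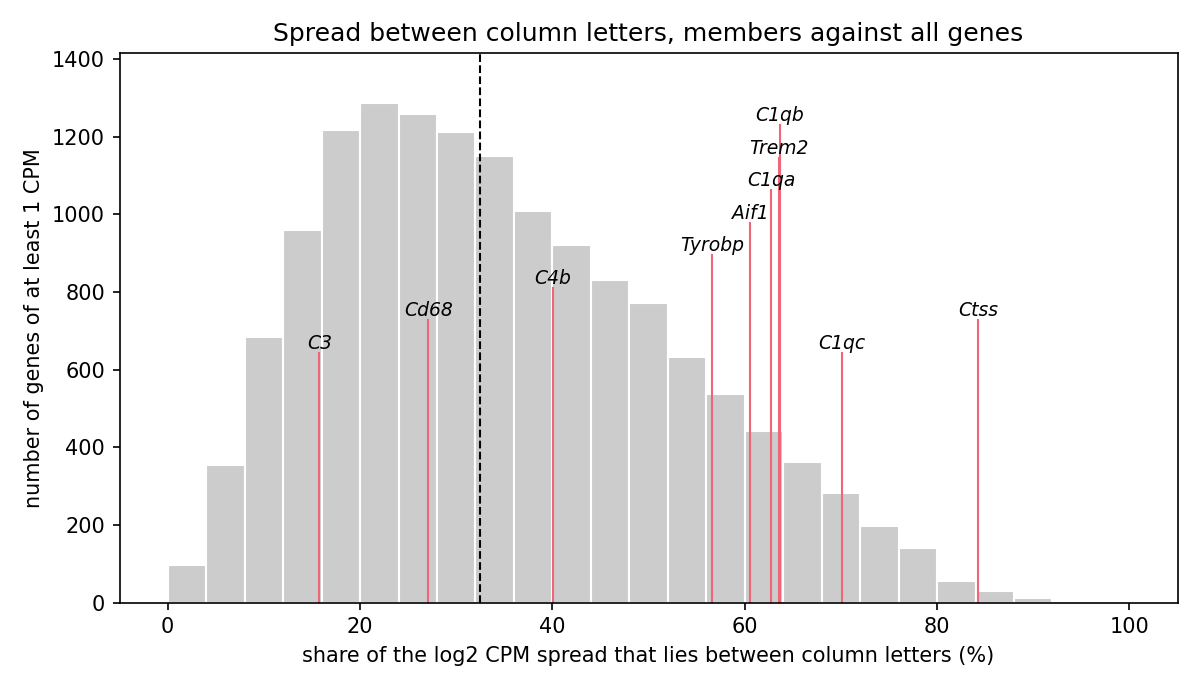
Histogram of the share of log2 CPM spread between column letters (x axis, percent) over the 14452 genes of at least 1 CPM (y axis, number of genes); the dashed line is the median gene and red lines mark the members, including the C3 gene, which lies under 1 CPM. Ctss lies at 84.2% and the median gene at 32.5%.

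Counted as pairs of letters whose ranges do not overlap, the 9 members gave 40 of 135 (29.6%), against 9.58% over all genes of at least 1 CPM. Ctss was apart in 12 of 15 letter pairs, C1qc and Trem2 in 6 each, C1qb and Aif1 in 4 each, C1qa and Tyrobp in 3 each, C4b in 2 and Cd68 in 0. The homeostatic microglia list gave 25.8% and the endothelium list 46.7%. The libraries A2, C2 and G1 had the steepest rise of level with the GC content of genes, at 0.135, 0.148 and 0.129 log2 units per 10 percentage points. Without them the members gave 65 of 135 pairs (48.1%) and all genes 16.2%. The share between letters was then 85.3% for C1qa, 87.7% for C1qb and 91.9% for C1qc, and 38.7% for the median gene. This choice of libraries was made after the values were seen. It is not independent of the C1q levels, since the GC slope had r = 0.68 to 0.74 with the 3 C1q genes within letters. With all 25 libraries kept and trends on GC content and length taken off, the share was 71.0% for C1qa, 67.8% for C1qb and 78.7% for C1qc. Aif1 then had 53.9%, Cd68 24.6% and the median gene 34.3%.

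Within letters, the members split into those that moved together and those that did not. The measure was Pearson's r of log2 CPM less the mean of the letter, over the 25 libraries, given as a description since libraries share depth and base composition effects. An r of at least 0.5 was found for 18 of 45 member pairs, against 6.73% of all pairs of genes of at least 1 CPM. All 18 lay among the 21 pairs of C1qa, C1qb, C1qc, Tyrobp, Trem2, Cd68 and Ctss. C1qa and C1qb had r = 0.89 (Spearman's rho 0.82), C1qb and C1qc 0.88 (rho 0.86), and C1qa and C1qc 0.83 (rho 0.71). Tyrobp had r = 0.77 with C1qa and 0.78 with C1qb but 0.49 with Trem2, the receptor it serves. None of the 24 pairs with the C3 gene, C4b or Aif1 reached 0.5, and these ran from -0.37 to 0.38.

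That co-variation moved with the base composition of the libraries. The letter-centred GC slope of a library had r = 0.77 with Tyrobp, 0.74 with C1qa, 0.73 with C1qc, 0.68 with C1qb, 0.63 with Trem2 and 0.54 with Cd68. It was 0.42 with C4b, 0.20 with Ctss and with Aif1, and 0.06 with the C3 gene. The longest transcripts of C1qa, C1qb and C1qc have 59.5%, 57.4% and 57.5% GC, against 49.7% for the median gene. Those of Tyrobp, Trem2 and Cd68 have 54.8%, 51.0% and 52.9%. C4b has 55.3%, the C3 gene 53.3%, Aif1 51.4% and Ctss 46.0%. The members thus did not rank alike by GC content and by r with the slope. With the trends on GC content and length taken off each library, 10 of the 45 pairs reached 0.5, against 5.67% of all gene pairs. Without libraries A2, C2 and G1, 3 pairs did, against 5.89% of all gene pairs, a share close to the background. Those 3 were C1qa with C1qb (r = 0.72), C1qb with C1qc (r = 0.61) and C1qc with Cd68 (r = 0.54). The part that base composition plays in the members' co-variation was not tested.

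**Figure D3:**
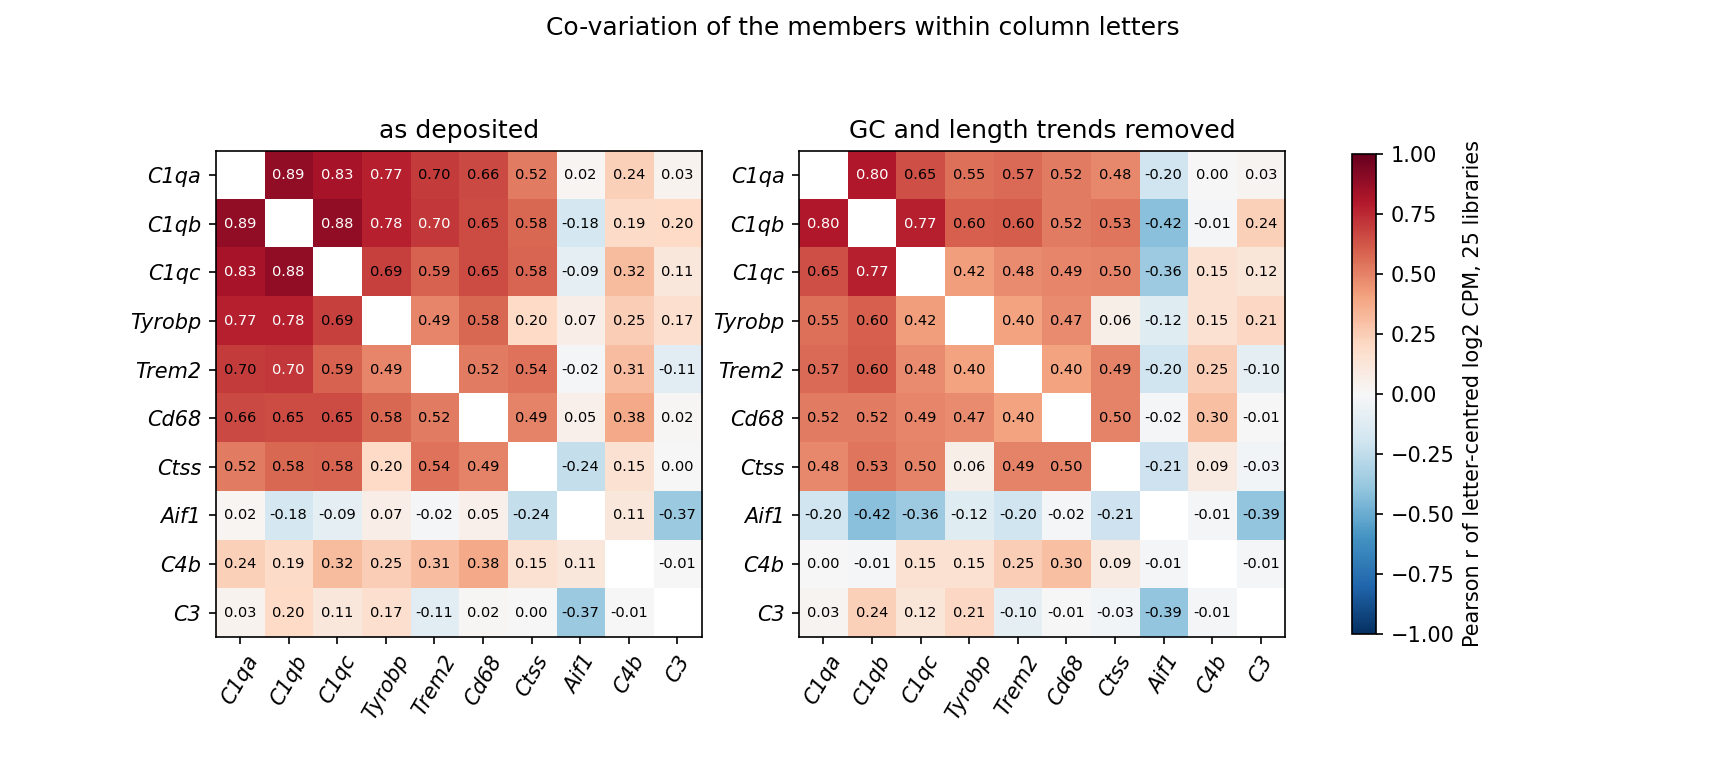
Pearson r of letter-centred log2 CPM over 25 libraries for each pair of members (colour and printed value), with the deposited values at left and with GC and length trends removed at right. Of 45 pairs, 18 reach 0.5 at left and 10 at right; C4b, the C3 gene and Aif1 reach it with no other member.

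The genes most like each member were named by r over the 25 libraries. For C1qa they were C1qb (r = 0.89), Psd (0.88) and Gipc1 (0.87), and for C1qb they were Gipc1 (0.93), Psd (0.90) and Dlgap3 (0.89). For C1qc they were G6pc3 (0.93), Camk2n2 (0.89) and Gipc1 (0.89). G6pc3 has a transcript of 57.9% GC, and Psd, Gipc1, Dlgap3 and Camk2n2 have 60.6% to 63.9%. With GC and length trends removed, Gipc1 was still first for C1qb (r = 0.86) and G6pc3 for C1qc (r = 0.86), while Chst2 was first for C1qa (r = 0.84). As deposited, 12.3% of all genes reached r = 0.5 with C1qa. Tyrobp was nearest to H2afx (0.85), Shf (0.85) and Dda1 (0.85). Trem2 was nearest to 1700003E16Rik (0.78), Kifc2 (0.77) and Grn (0.77), the last of which encodes the lysosomal protein progranulin. Cd68 was nearest to Cyp2d22 (0.83), Trim65 (0.81) and Cyp4f15 (0.79). For Ctss they were Suclg2 (0.79), Nat8f1 (0.77) and H2-K1 (0.77), which encodes a class I MHC molecule. Aif1 was nearest to Kif1c (0.74), Slc12a4 (0.73) and Ttn (0.73). The C3 gene had Ap1ar (0.78), Mpp1 (0.78) and Pcsk2 (0.74) as its nearest genes, on few reads. All of these r values are over 25 libraries.

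C4b varied closely with an astrocyte gene and at most with r = 0.38 with another member. Of 14451 genes, Gfap, the intermediate filament of reactive astrocytes, was the most like it, with r = 0.93 and rho = 0.93 over 25 libraries. Fxyd5 (r = 0.85) and Rbm10 (r = 0.83) followed. In M-stress/vehicle, Gfap stood at 116, 61.2, 80.0, 55.4 and 51.2 CPM, with library E1 the highest as for C4b. Without libraries B2 and F4, the 2 farthest from the median of C4b, r was 0.93, and with GC and length trends removed it was 0.92. It stayed between 0.90 and 0.94 in 14 alternatives, which were chosen after the values were seen. Over the 25 libraries the CPM ratio of C4b to Gfap ran from 0.120 to 0.354. The 12 astrocyte markers, Gfap among them, summed to 6735 to 7613 CPM in M-stress/vehicle and 5784 to 9050 CPM in the others. The letter-centred mean of those markers had r = 0.36 with C4b. Among the other lists the excitatory neuron genes had r = -0.59 with C4b and the other complement genes, which include C4a, had 0.68, while the remaining lists lay between 0.11 and 0.29. The part of these lists in the relation was not tested.

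**Figure D4:**
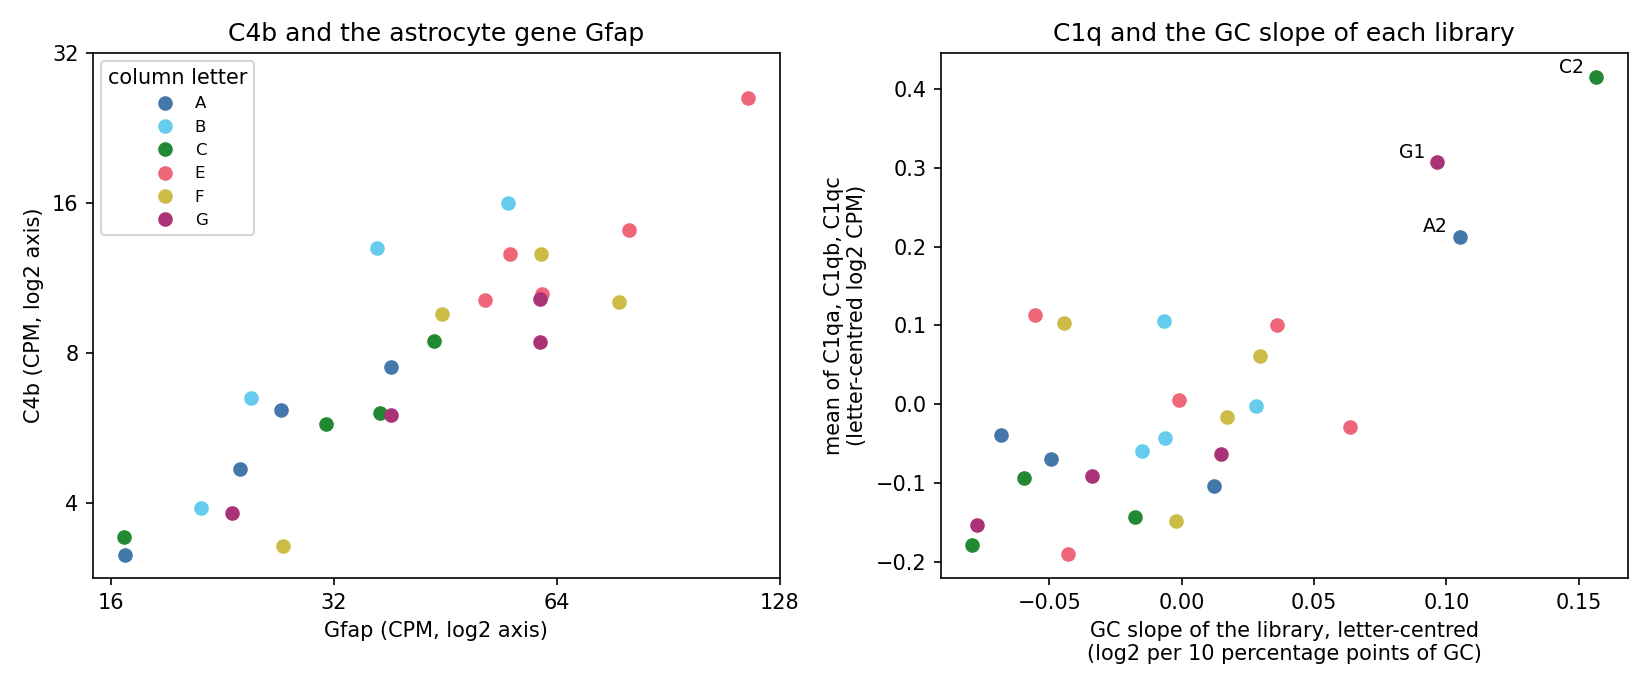
Left, C4b against Gfap (CPM, both axes log2) in the 25 libraries, coloured by column letter. Right, mean letter-centred log2 CPM of the 3 C1q genes against the letter-centred GC slope of each library, where libraries A2, C2 and G1 lie at the upper right.

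Elsewhere in the complement pathway, 34 of 39 listed genes were in the table and 31 had reads enough to test in M-stress/vehicle. The chi-square test called 21 of the 31 on reads and 13 with 2 reads as 1 fragment, shares no higher than the 74.4% and 45.5% of all genes. The most abundant were Clu (644 ± 47.6 CPM), a fluid-phase regulator, Lrp1 (546 ± 54.1 CPM), an endocytic receptor, and Calr (346 ± 9.07 CPM), which can act as an eat-me signal (SD, n = 5). The partners of C1q were low per length. C1ra, which encodes the protease C1r, stood at 0.870 ± 0.0986 RPKM, and C1s1, which encodes C1s, at 0.354 ± 0.0916 RPKM (SD, n = 5). Serping1, the inhibitor of both proteases, stood at 0.752 ± 0.487 RPKM (SD, n = 5). Of the receptors for C3 fragments, Itgam (1.47 ± 0.154 RPKM) and Itgb2 (2.23 ± 0.295 RPKM), the chains of complement receptor 3, and C3ar1 (0.563 ± 0.129 RPKM) were all read above the C3 gene itself (SD, n = 5).

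Of 43 other phagocytic, Fc receptor and lysosome genes, all were tested and 33 were called on reads by the chi-square test, or 25 with 2 reads as 1 fragment, beside 74.4% and 45.5% of all genes. The most abundant were Apoe (1201 ± 40.9 CPM), a lipid carrier, Cst3 (787 ± 50.3 CPM), a cathepsin inhibitor, and Ctsb (548 ± 36.2 CPM), a lysosomal protease, which other brain cells express too (SD, n = 5). Syk, the kinase after TYROBP, stood at 0.714 ± 0.0385 RPKM, and Hcst, the related adaptor DAP10, at 0.525 ± 0.288 RPKM, both well below Tyrobp (SD, n = 5). The homeostatic microglia list had 19 of 22 genes called on reads and 14 with 2 reads as 1 fragment, beside the same 74.4% and 45.5%. Its most abundant genes were Bin1 (281 ± 19.1 CPM), Sparc (186 ± 14.5 CPM) and Csf1r (114 ± 9.88 CPM), of which Bin1 and Sparc are also made by other brain cells (SD, n = 5). Spi1 stood at 1.64 ± 0.250 RPKM (SD, n = 5).

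Some marker lists differed between letters alongside the members and others did not. Letter ranges were apart in 46.7% of letter pairs for endothelium, 25.8% for homeostatic microglia and 23.3% for astrocytes. The blood list had 40%, on its 2 genes of at least 1 CPM. Excitatory neurons had 10%, perivascular and meningeal macrophages 5% and mature oligodendrocytes 1.11%, against 9.58% over all genes of at least 1 CPM. The 22 homeostatic microglia genes summed to 884 to 1007 CPM in M-stress/vehicle and 751 to 1060 CPM in the other libraries, with none at 0. The 8 endothelium genes summed to 296 to 349 CPM in M-stress/vehicle and 194 to 417 CPM in the others. For perivascular and meningeal macrophages the 11 markers summed to 26.8 to 34.7 CPM and 19.96 to 41.4 CPM, and 7 of them were under 1 CPM. Stab1 alone stood at 19.5 to 24.7 CPM in M-stress/vehicle, most of the sum. Blood monocyte and neutrophil markers, of which 12 of 14 were under 1 CPM, summed to 49.6 to 97.2 CPM and 33.2 to 95.4 CPM. Most of that sum was Fn1, at 41.3 to 69.5 CPM in M-stress/vehicle, followed by Csf3r, at 6.68 to 7.89 CPM there. Mature oligodendrocyte markers summed to 2534 to 5595 CPM and 1301 to 4254 CPM. No list had a gene at 0 in every M-stress/vehicle library. Within letters, the mean of the 3 C1q genes had r = 0.74 with the homeostatic microglia list, 0.72 with the phagocytic list, 0.49 with astrocytes, 0.24 with endothelium and -0.38 with mature oligodendrocytes. GC and length trends were not removed for these r values. As deposited, 12.3% to 13.7% of all genes reached r = 0.5 with a single C1q chain, genes of other cells among them. What these lists contribute to the members' levels was not tested.

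**Figure D5:**
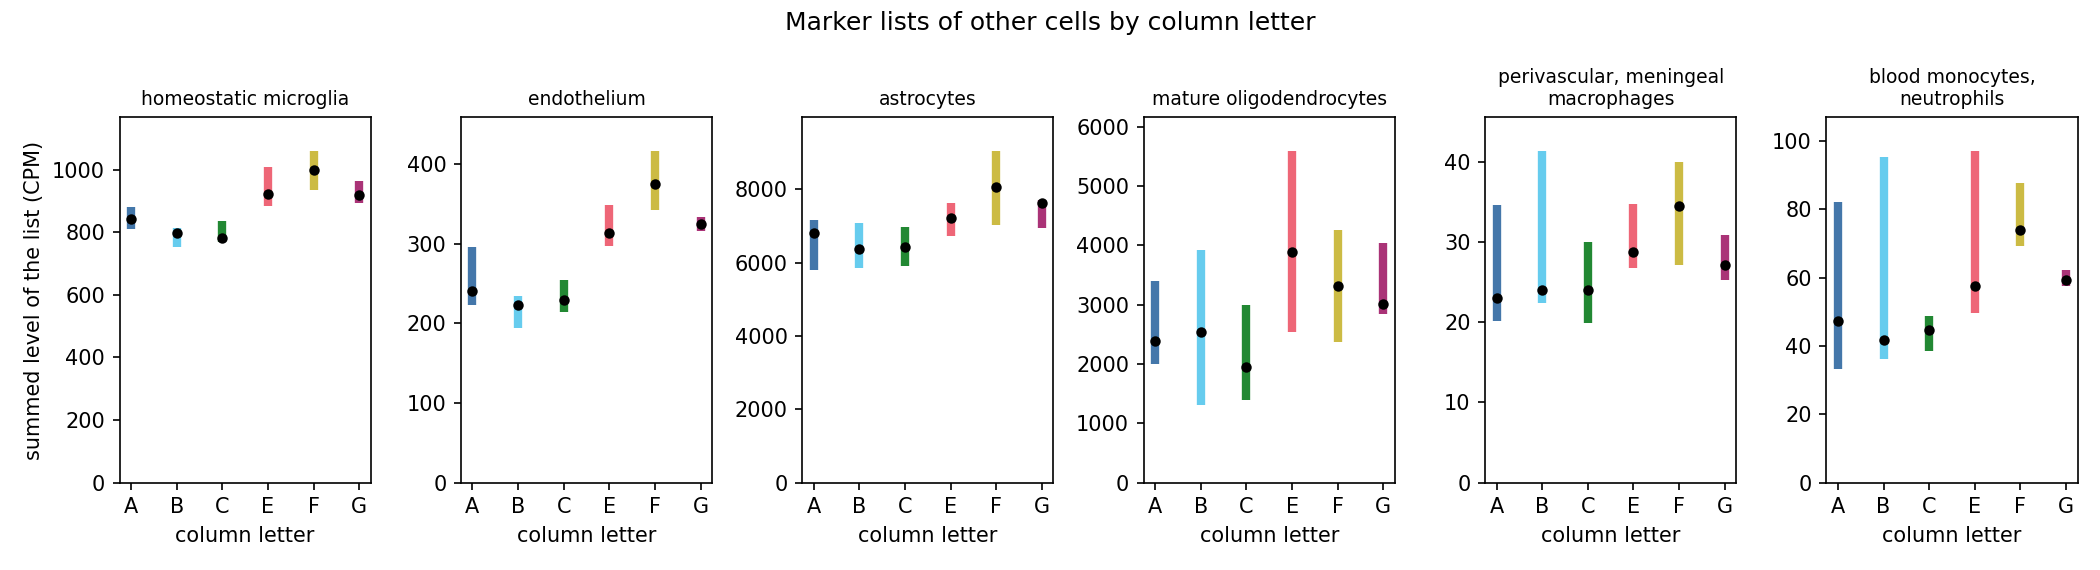
Summed CPM of 6 marker lists (y axes, from 0) by column letter (x axis); bars run from the lowest to the highest library and dots are medians. Endothelium markers reach 194 to 296.2 CPM in letters A, B and C and 296.5 to 417 CPM in letters E, F and G. Most of the blood sum is Fn1, and most of the perivascular and meningeal macrophage sum is Stab1.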

How the data were processed

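The members, marker lists and alternatives were chosen with earlier results of these data known. The deposited values are log2 CPM. Their form, inferred from the values, is 0.5 reads added and an effective library size. Per the submitters' processing notes, the authors used STAR 2.6.1d, SAMtools 1.9, featureCounts of Subread 1.6.3 and edgeR, with mm10 and GRCm38 named as builds. Counting settings: not given in the sources used here. Reads were recovered by undoing the log: 100% of values were whole within 1e-06 reads. Low values were mostly even, as when both mates of a pair are counted, so counting error was also computed with 2 reads per fragment, an alternative added after seeing the data. Symbols, coordinates and exon lengths came from GENCODE M21 (GRCm38), and 23856 of 23990 identifiers matched.

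All 25 columns were used and 0 were left out. Letters other than E match 5 groups equally well; they enter descriptions only, without mean, SD or test. The 1 test, a chi-square per gene (4 degrees of freedom) over the 5 M-stress/vehicle libraries, covered genes averaging 5 or more reads, with Benjamini-Hochberg adjustment and a threshold of 0.05. It was tested on simulated data with reads drawn independently, which does not cover reads counted in pairs. Each of the 300 pairings of libraries held at least 4496 genes apart by the same test, or 1293 with 2 reads per fragment, so no library was a copy of another. The check cannot tell whether any 2 libraries came from the same mouse. Intervals and limits cover counting error only. Named genes are the members, the 3 genes most like each by r among genes of at least 1 CPM, the 3 most abundant of each pathway list, and fixed partners of C1q, C3 and TREM2, 1 of which is not reported here; Gfap's levels, the tissue markers and the GC-steep libraries were chosen after values were seen. Calculations ran in Python 3.11.15 with scipy 1.17.1, pandas 2.3.3 and numpy 2.4.6, and plots in matplotlib 3.10.9.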

Additional observations from a re-analysis of the deposited data

Results flagged for a closer look

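Among the 10 members in the 5 M-stress/vehicle libraries, 2 values stood far from the other 4 by Dixon's gap ratio; chance gives about 0.5 such flags in 10 genes. C4b in library E1 was 26.0 CPM, against a mean of 11.9 CPM in the other 4. Its gap took 0.754 of the range in CPM and 0.656 on the log2 scale, where it lies under the critical value. Cd68 in library E3 was 5.00 CPM, 0.697 times the mean of 7.18 CPM in the other 4. Its gap took 0.828 of the range in CPM and 0.855 on the log2 scale.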

How the results depend on the processing

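The number of members called in M-stress/vehicle was 10, and 8 to 10 when 1 library was left out. The number of all genes called was 14308, and 12646 to 15862 over the scaling, filter and leave-one-out alternatives other than the fragment count; with 2 reads as 1 fragment it was 8753. Mean levels of the 10 members moved by less than 1 SD under other scalings and without any 1 library, though that of the C3 gene went from 0.328 to 0.207 CPM without E4. The members whose share between letters exceeds that of the median gene numbered 8 or 9 in all 14 alternatives. The number of member pairs with r of at least 0.5 was 18, 26 without centring, 10 once the trends on GC and length were taken off and 3 without the 3 steepest libraries. Depth limits the C3 gene, with a mean of 12.4 reads in M-stress/vehicle, which was not tested at a minimum of 20 reads. No paired analysis was possible because only 1 column letter is tied to a group.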

Other observations

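The libraries of letters A, B and C and those of letters E, F and G fell apart for 1 member with all libraries kept. This split was noticed in the values, and no condition is attached to it. Ctss ran from 41.0 to 53.5 CPM in the 12 libraries of A, B and C and from 54.3 to 75.4 CPM in the 13 of E, F and G. It was the 1 member without overlap; 33 of 14452 genes (0.228%) were lower throughout in A, B and C, and 36 (0.249%) were higher. Without libraries A2, C2 and G1, C1qa (29.9 to 37.0 against 38.1 to 53.8 CPM), C1qb (28.9 to 35.7 against 36.7 to 49.1 CPM) and C1qc (26.0 to 32.1 against 34.7 to 48.5 CPM) did not overlap either. Then 148 genes (1.02%) were lower throughout and 171 (1.18%) higher. Libraries A2 and C2 held the highest C1qa, C1qb and C1qc levels of letters A, B and C. They were left out by a GC slope that had r = 0.68 to 0.74 with these genes. The separation of the C1q genes is therefore not independent of that choice. The sum of the endothelium markers divided the same way with all libraries, at 194 to 296.2 against 296.5 to 417 CPM. So did that of the homeostatic microglia markers, at 751 to 881 against 884 to 1060 CPM. Both gaps were narrow, and singly 1 of 8 endothelium and 2 of 22 homeostatic microglia genes were lower throughout. The microglia sum includes Bin1 (233 to 297 CPM) and Sparc (132 to 244 CPM), which other brain cells also make. The sum of the astrocyte markers overlapped, at 5784 to 7165 against 6735 to 9050 CPM, though singly 2 of 12 astrocyte genes were lower throughout. The largest part of that sum was Slc1a2, at 2908 to 5122 CPM over the 25 libraries.

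Among low values over all libraries, 2 reads occurred 32137 times and 1 read 9958 times, and 4 reads 21362 times against 7789 for 3 reads. The share of even values was 72.9% from 1 to 10 reads, 64.1% from 11 to 30 and 59.2% from 31 to 100. The C3 gene was even in all 25 libraries and Cd68 in 11.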
